A study of Mus musculus with 6 samples.

Results

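The genes described here are 40 genes of interferon sensing and signalling, from the sensors that detect foreign nucleic acid to the STAT and IRF transcription factors, in partially reprogrammed mouse melanoma cells. They were chosen by name, each through probe sets that the array annotation gives to that gene alone. Such a probe set was present for 39 of the 40 genes (79 probe sets of 45101 on the array), and Trex1, a DNA-degrading exonuclease gene, was not analysed because its probe set also carries the name of another gene. Where a gene had several probe sets, the brightest on average was used, and tests covered all 18193 genes measured in this way.

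The 4434 line comes from a mouse melanoma with mutant Braf. Both groups carried 2 lentiviral vectors, the first with Sox2, Klf4, Oct4 (Pou5f1) and a blasticidin resistance gene under a doxycycline-inducible promoter and the second with the transactivator that answers to doxycycline. Cells given doxycycline (+ dox) and cells kept without it (− dox) were compared at day 20, with 3 expression arrays per group. The methods describe reprogramming medium with the cytokine LIF, and blasticidin was used to select + dox cells, so doxycycline, selection and the 3 factors cannot be told apart. The methods speak of 3 or more independent experiments in general, without naming these arrays. No label says that replicate arrays stem from independent cultures, and the p-values reflect the spread between these samples alone, possibly a technical one. The vector genes did not pass the test: Pou5f1 stood at 4.77, 5.32 and 4.92 in + dox against 4.13, 4.21 and 4.42 in − dox arrays, on the log2 scale used throughout (0.75, SE 0.17, limma adjusted p = 0.0566), Sox2 had −0.71 and Klf4 −0.58, and which part of the vector transcripts their probe sets cover was not analysed here. Of the melanocyte markers, Tyr (3.31 to 3.69) and Mlana (3.41 to 3.68) were dimmer in every array than the lower quartile of its probe sets, and Sox10 lay between 6.12 and 6.46. Others were brighter: Mitf had 6.41, 6.83 and 6.17 in + dox against 8.15, 6.87 and 6.67 in − dox arrays. Gpnmb had 7.76, 7.16 and 6.75 against 10.58, 9.51 and 9.45. Among the marker genes of other cell types 0 of 11 immune, 0 of 7 fibroblast, 0 of 4 endothelial and 1 of 5 keratinocyte markers (Krt14, 3.67 higher) were called. Of 10 melanocyte markers 1 was called (Gpnmb, −2.62), and over all genes 4.87% were.

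Interferons are secreted proteins that warn cells of viral infection. Sensors such as Ifih1 (also called MDA5) and Toll-like receptors detect nucleic acid or microbial products and act through adaptors and kinases to switch on interferon genes, and interferon in turn acts on its receptors and the JAK kinases bound to them. For type I interferon these kinases act through Stat2 and Irf9, which raise a large set of interferon-stimulated genes, several of the sensors and factors among them, while SOCS proteins restrain the JAK kinases.

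The arrays within the + dox group differed. On the first principal component over all genes (63.2% of the variance) − dox arrays lay between −39.6 and −30.7, + dox 1 at 10.5, + dox 2 at 41.9 and + dox 3 at 54.4, and − dox 1 stood apart on the next component. The + dox values are therefore given array by array, and results that rest on + dox 1 are given with and without it. Array + dox 1 was singled out after the values were seen. Adjusted p values without it therefore describe the remaining arrays and are not a test of + dox against − dox cells.

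In brief, 1 of the 39 genes passed the test over all 6 arrays: Socs3 fell, and 0 genes rose (background over all genes 4.87% called, 3.07% higher and 1.8% lower). Before adjustment 11 of 39 had a p under 0.05, against 3941 of 18193 over all genes. Without + dox 1, 12 passed, of which 11 were higher (Ifih1, Dhx58, Tlr3, Tlr2, Mavs, Myd88, Jak1, Stat2, Irf7, Irf9 and Adar) and 1 was lower (Socs3), where 9.07% of all genes were called, 5.24% higher and 3.83% lower. Without + dox 2 or without + dox 3, 0 of the 39 passed, where 170 and 157 of all 18193 genes were called. Without both arrays numbered 1, 17 passed, 15 of them higher (20.1% of all genes called, 10.3% higher), and Ikbke, Tyk2, Irf1, Irf2 and Socs2 were added. The median change over the 39 genes was 0.15, and 0.22 without + dox 1, beside 0.01 and 0.0033 over all genes. All + dox arrays lay above all − dox arrays in 5 of the 39 genes and below them in 5. Over all genes these shares were 14.3% and 12.6%. The 11 higher genes were 4 of the 6 sensors, 2 of the 5 adaptors and kinases, 1 of the 4 JAK kinases, 1 of the 6 STAT factors, 2 of the 8 IRF factors and Adar, and 0 of the 2 interferon and 0 of the 4 receptor genes passed.

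**Figure D1:**
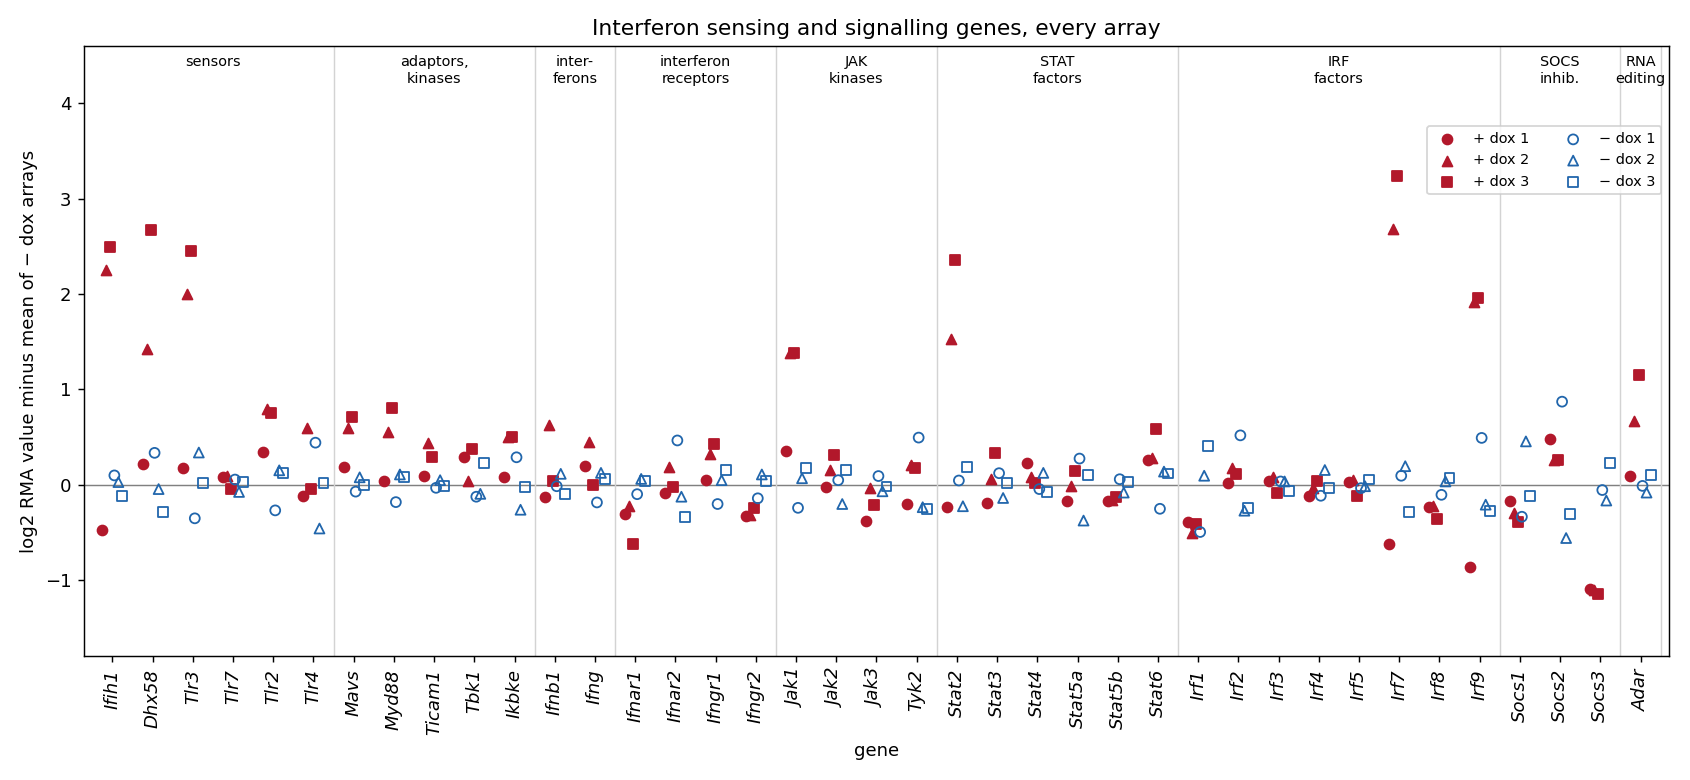
Log2 RMA value minus the mean of the 3 − dox arrays (vertical axis) of the 39 genes, grouped by role (horizontal axis). Each array has 1 symbol per gene, filled and red for + dox, open and blue for − dox; in Ifih1, Dhx58, Tlr3, Stat2, Irf7 and Irf9 the triangles and squares of + dox 2 and + dox 3 stand high while the circle of + dox 1 lies with or below the − dox arrays, and in Socs3 all 3 + dox arrays lie about 1.1 lower.

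Promoter sequences were examined because Stat2 and Irf9 act at a DNA motif, the interferon-stimulated response element, and STAT dimers at another, the GAS site. The windows run from 250 bases before to 50 after the annotated start (RefSeq, build GRCm38.p6), and 36 of the 40 genes had one. The core of the response element was searched as GAAA, any 2 bases and GAAA again, and the GAS site as TTCNNNGAA, on both strands. The first was found in 6 of 36 genes (16.7%, against 3.99% of all genes in the table), namely Ifih1, Myd88, Stat2, Irf2, Socs1 and Stat4. The second was found in 9 of 36 (25.0% against 9.55%), namely Adar, Myd88, Socs3, Ifnar1, Ifnar2, Ifng, Irf1, Irf2 and Irf8. Irf2, Socs1 and Stat4 with the first, and Ifnar1, Ifnar2, Ifng, Irf1, Irf2 and Irf8 with the second, were not called without + dox 1. The parts of 4 windows before the start are shown 5′ to 3′ with matches in capitals: Socs3, the gene called over all arrays (chr11:117969367-117969616, minus strand), Stat2 (chr10:128270248-128270497, plus strand) and Myd88 (chr9:119340019-119340268, minus strand), which have a match and stood higher without + dox 1, and Irf7 (chr7:141266425-141266674, minus strand), the gene with the largest change of the 39. The last 3 were chosen after their values were seen.
Socs3: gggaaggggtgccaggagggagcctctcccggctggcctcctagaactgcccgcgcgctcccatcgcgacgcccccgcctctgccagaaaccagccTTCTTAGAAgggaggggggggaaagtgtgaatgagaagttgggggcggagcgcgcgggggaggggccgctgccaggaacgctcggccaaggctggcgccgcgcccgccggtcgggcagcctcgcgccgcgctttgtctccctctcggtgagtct
Stat2: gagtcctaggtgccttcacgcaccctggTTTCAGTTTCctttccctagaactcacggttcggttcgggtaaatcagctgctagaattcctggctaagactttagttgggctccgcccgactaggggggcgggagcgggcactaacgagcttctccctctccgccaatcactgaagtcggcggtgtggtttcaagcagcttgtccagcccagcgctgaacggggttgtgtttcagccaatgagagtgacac
Myd88: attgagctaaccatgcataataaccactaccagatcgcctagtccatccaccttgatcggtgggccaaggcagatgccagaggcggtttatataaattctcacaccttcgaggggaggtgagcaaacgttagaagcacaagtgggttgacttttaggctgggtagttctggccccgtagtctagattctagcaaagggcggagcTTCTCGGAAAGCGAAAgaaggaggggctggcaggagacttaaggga
Irf7: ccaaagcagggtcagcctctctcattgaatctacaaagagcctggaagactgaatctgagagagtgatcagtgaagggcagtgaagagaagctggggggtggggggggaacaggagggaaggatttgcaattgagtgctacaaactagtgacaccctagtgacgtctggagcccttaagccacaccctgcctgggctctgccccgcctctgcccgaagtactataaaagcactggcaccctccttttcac

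The Socs3 match is a GAS site that begins 154 bases before the start, and the Stat2 match is a response element core on the minus strand that begins 222 bases before it. In Myd88 the capitals hold both motifs, which overlap, with the GAS match beginning 46 and the response element core 40 bases before the start. In Ifih1 the match (GAAACAGAAA) lies after the start. Neither motif was found in the Irf7 window or in the windows of Irf9, Jak1, Tlr3 and Mavs. A match describes letters only and is not a measured binding site.

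Of the 6 sensors, 3 had + dox 2 and + dox 3 more than 1 unit above every − dox array (Ifih1, Dhx58 and Tlr3). This limit was set after the values were seen, and the share of all genes that meet it was not counted. Ifih1, a cytoplasmic sensor of long double-stranded RNA, had 7.13, 9.85 and 10.10 in + dox 1, 2 and 3 against 7.70, 7.63 and 7.48 in − dox 1, 2 and 3. Array + dox 1 lay below all 3 − dox arrays and the other + dox arrays more than 2 units above them. Over all arrays the change was 1.42 (SE 0.75, adjusted p = 0.342), and without + dox 1 it was 2.37 (SE 0.13, 5.18-fold, adjusted p = 0.000998), with adjusted p from 0.000164 to 1 over the alternatives.

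Dhx58, which encodes the related RNA sensor LGP2, had 4.32, 5.53 and 6.78 in + dox against 4.44, 4.06 and 3.82 in − dox arrays. The + dox 1 value fell inside the − dox range. The change was 1.44 (SE 0.58, adjusted p = 0.214), and 2.05 without + dox 1 (SE 0.39), while 1 of its 3 probe sets had a change of −0.01. Tlr3, the endosomal receptor for double-stranded RNA, had 6.40, 8.22 and 8.67 against 5.87, 6.56 and 6.24, so here too only + dox 1 overlapped the − dox arrays. Its change was 1.54 (SE 0.57, adjusted p = 0.181), 2.22 without + dox 1 (SE 0.24), and both its probe sets had the same sign. Without + dox 1 the adjusted p was 0.0354 for Dhx58 and 0.00675 for Tlr3, with 0.00902 to 1 and 0.000992 to 1 over the alternatives.

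Tlr2, a surface receptor for bacterial lipoproteins, was higher in every + dox array (6.79, 7.24 and 7.20 against 6.18, 6.60 and 6.57), a change of 0.63 (SE 0.17, adjusted p = 0.0972), or 0.77 without + dox 1 (adjusted p = 0.0434, with 0.00960 to 1 over the alternatives). Tlr7, the receptor for single-stranded RNA, lay between 4.57 and 4.74 in all 6 arrays (0.04, 95% confidence interval −0.18 to 0.27). Tlr4, the receptor for bacterial lipopolysaccharide, ranged from 7.45 to 8.16 in + dox and from 7.11 to 8.01 in − dox arrays (0.14). Of the 6 sensors 0 passed over all arrays and 4 passed without + dox 1, where 9.07% of all genes did. Before adjustment 3 of the 6 had a p under 0.05, against 3941 of 18193 over all genes.

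Adaptors and kinases moved less. Mavs, the mitochondrial adaptor through which Ifih1 signals, had 10.16, 10.57 and 10.68 in + dox against 9.90, 10.05 and 9.97 in − dox arrays. The groups did not overlap (as in 26.9% of all genes), and the change was 0.50 (SE 0.15, adjusted p = 0.121), with 0.49 in the other probe set. Myd88, the adaptor of most Toll-like receptors, had 8.24, 8.75 and 9.01 against 8.02, 8.31 and 8.28, with + dox 1 inside the − dox range (0.46, SE 0.21, adjusted p = 0.263). Without + dox 1 both passed, Mavs with 0.65 (SE 0.11, adjusted p = 0.0230) and Myd88 with 0.68 (SE 0.15, adjusted p = 0.0487), with 0.0129 to 1 and 0.0241 to 1 over the alternatives. Ticam1, the adaptor of Tlr3, had 0.27 without overlap between groups, and the kinase genes Tbk1 and Ikbke, whose enzymes phosphorylate Irf3 and Irf7, had 0.24 and 0.36. All 5 adaptor and kinase genes had a positive change, beside a median change of 0.01 over all genes. Of the 5, 0 passed over all arrays and 2 without + dox 1, where 4.87% and 9.07% of all genes did.

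The interferon genes themselves lay low. Ifnb1, the gene of interferon beta, had 4.28, 5.03 and 4.45 in + dox and 4.39, 4.52 and 4.31 in − dox arrays. Only + dox 2 exceeded the − dox range, and the change was 0.18 (interval −0.30 to 0.66, adjusted p = 0.679). Ifng, the gene of interferon gamma, was dimmer than the lower quartile of probe sets in all 6 arrays, with 3.28, 3.53 and 3.08 against 2.90, 3.21 and 3.15 (0.21, adjusted p = 0.489).

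Receptor subunits differed little, with changes from −0.38 to 0.26. Ifnar1, a subunit of the type I receptor, had 8.22, 8.31 and 7.91 in + dox against 8.43, 8.59 and 8.57 in − dox arrays, so the groups did not overlap (−0.38, SE 0.13, adjusted p = 0.152). Ifngr2, a subunit of the interferon gamma receptor, also lay below every − dox array (9.20, 9.21 and 9.29 against 9.39, 9.64 and 9.57), a change of −0.30 (SE 0.10, adjusted p = 0.151). The partner subunits had 0.02 (Ifnar2) and 0.26 (Ifngr1), with overlapping groups. None of the 4 passed over all arrays or without + dox 1. Before adjustment 2 had a p under 0.05, against 3941 of 18193 over all genes. All + dox arrays lay below all − dox arrays in 12.6% of all genes.

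Among the kinases of these receptors Jak1 stood out. Jak1, which serves both interferon receptors and the gp130 receptors, had 10.57, 11.59 and 11.59 in + dox against 9.97, 10.28 and 10.39 in − dox arrays, with all + dox arrays above all − dox arrays in each of its 3 probe sets (26.9% of all genes did not overlap between groups, 14.3% with + dox above). The change was 1.04 (SE 0.29, 2.05-fold, adjusted p = 0.102), and between 0.95 and 1.04 over the probe sets. Without + dox 1 it was 1.38 (SE 0.15, adjusted p = 0.00685, with 0.000880 to 1 over the alternatives). Jak3, the kinase of the common gamma chain of interleukin receptors, had 6.0, 6.34 and 6.17 against 6.47, 6.31 and 6.36 (−0.21, adjusted p = 0.372). Jak2 had 0.15, and Tyk2, the other kinase of the type I receptor, 0.06, with − dox 1 at 8.10 above all other arrays.

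Of the STAT genes Stat2 differed most. Stat2, the factor that pairs with Irf9, had 4.29, 6.05 and 6.88 in + dox against 4.57, 4.30 and 4.71 in − dox arrays. The + dox 1 value was the lowest of the 6 and those of + dox 2 and + dox 3 were the highest. The change was 1.21 (SE 0.61, adjusted p = 0.320) and 1.94 without + dox 1 (SE 0.27, 3.83-fold, adjusted p = 0.0139, with 0.00509 to 1 over the alternatives). The other Stat2 probe set had 1.38. Stat6, the factor of interleukin 4 signalling, was higher in every + dox array (8.53, 8.55 and 8.86 against 8.02, 8.41 and 8.39; 0.37, SE 0.15, adjusted p = 0.222). Stat3, the main factor of gp130 signalling, had 0.07 (interval −0.30 to 0.44), Stat4 0.11, Stat5a −0.01 and Stat5b −0.16. Probe sets of Stat3, Stat5a, Stat5b and Tyk2 differed in sign.

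**Figure D2:**
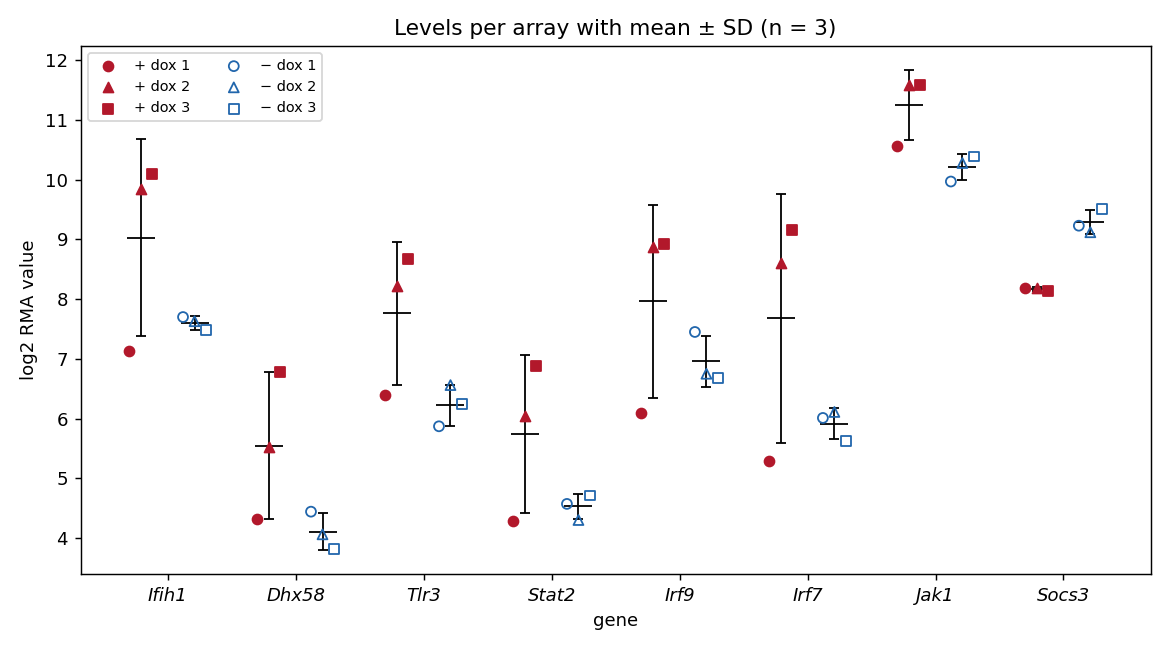
Log2 RMA value (vertical axis) of 8 genes (horizontal axis) in each array, filled red for + dox and open blue for − dox, and black marks give each group's mean with its SD (n = 3). Irf7 runs from 5.29 in + dox 1 to 9.15 in + dox 3, whereas the 3 + dox values of Socs3 lie between 8.14 and 8.19.

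The IRF genes split in the same way. Irf7, the factor that drives the amplification of type I interferon, had 5.29, 8.60 and 9.15 in + dox against 6.01, 6.11 and 5.63 in − dox arrays. Array + dox 1 lay below every − dox array and the other + dox arrays about 3 units above their mean, the widest gap of the 39 genes. The change was 1.76 (SE 0.95, adjusted p = 0.354), with an SD of 2.09 in + dox and an interval of −0.52 to 4.04. Without + dox 1 it was 2.96 (SE 0.22, 7.77-fold, adjusted p = 0.00229, with 0.000497 to 1 over the alternatives). Irf9 had 6.10, 8.88 and 8.92 against 7.45, 6.75 and 6.68, again with + dox 1 lowest (1.01, SE 0.76, adjusted p = 0.516), and 1.94 without + dox 1 (SE 0.25, 3.84-fold, adjusted p = 0.0113, with 0.000109 to 1 over the alternatives). Irf7 and Irf9 have 1 probe set each.

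The remaining IRF genes showed no such split. Irf3, the constitutive partner of Irf7, lay between 9.39 and 9.56 in all arrays (0.01, interval −0.21 to 0.23). Irf2 had 0.10, Irf4 −0.04 and Irf5 −0.01, and probe sets of Irf3 and Irf4 differed in sign. Irf8, a factor of myeloid cells, was lower in every + dox array (4.63, 4.64 and 4.51 against 4.76, 4.90 and 4.94; −0.27, SE 0.10, adjusted p = 0.167). Irf1, a factor induced by interferon gamma, had 9.32, 9.21 and 9.30 against 9.22, 9.81 and 10.12 (−0.44, SE 0.22, adjusted p = 0.325). Without − dox 1 Irf1 had −0.69 and an adjusted p of 0.0351, with 0.0161 to 1 over the alternatives.

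Socs3 was the 1 gene that changed over all arrays. Socs3, a feedback inhibitor of gp130 receptors and their JAK kinases, had 8.19, 8.18 and 8.14 in + dox against 9.23, 9.12 and 9.51 in − dox arrays. The 3 + dox arrays lay within 0.05 of each other and all below the − dox arrays. It fell by 1.12 (SE 0.12, interval −1.41 to −0.82, 2.17-fold, adjusted p = 0.00903), and all 3 of its probe sets passed, with −0.73, −0.83 and −1.12 (background over all probe sets 2.53% called). Without + dox 1 the change was −1.13 (adjusted p = 0.0112). It missed the threshold without + dox 2 (−1.12, adjusted p = 0.0509) and without + dox 3 (−1.10, adjusted p = 0.0517), and against a 1.5-fold limit (adjusted p = 0.169). Over all alternatives its adjusted p ran from 0.00388 to 0.169.

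The other SOCS genes did not pass. Socs1, the inhibitor of interferon receptor signalling, ranged from 6.39 to 6.62 in + dox and from 6.45 to 7.24 in − dox arrays (−0.29, adjusted p = 0.496). Socs2, which restrains growth hormone signalling through Stat5, had 6.44, 6.22 and 6.22 against 6.83, 5.40 and 5.65, with − dox 1 above and the other − dox arrays below all + dox arrays (0.33, adjusted p = 0.665). Without − dox 1 it had 0.77 (adjusted p = 0.0292, with 0.0127 to 1 over the alternatives), and 3 of its 6 probe sets had the opposite sign. Adar, an RNA-editing enzyme that keeps self RNA from the sensors, had 8.50, 9.08 and 9.56 against 8.40, 8.33 and 8.51, with + dox 1 inside the − dox range. Its change was 0.63 (SE 0.26, adjusted p = 0.217), and 0.91 without + dox 1 (SE 0.17, adjusted p = 0.0327, with 0.0165 to 1 over the alternatives), and its 3 probe sets ranged from −0.02 to 1.05.

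**Figure D3:**
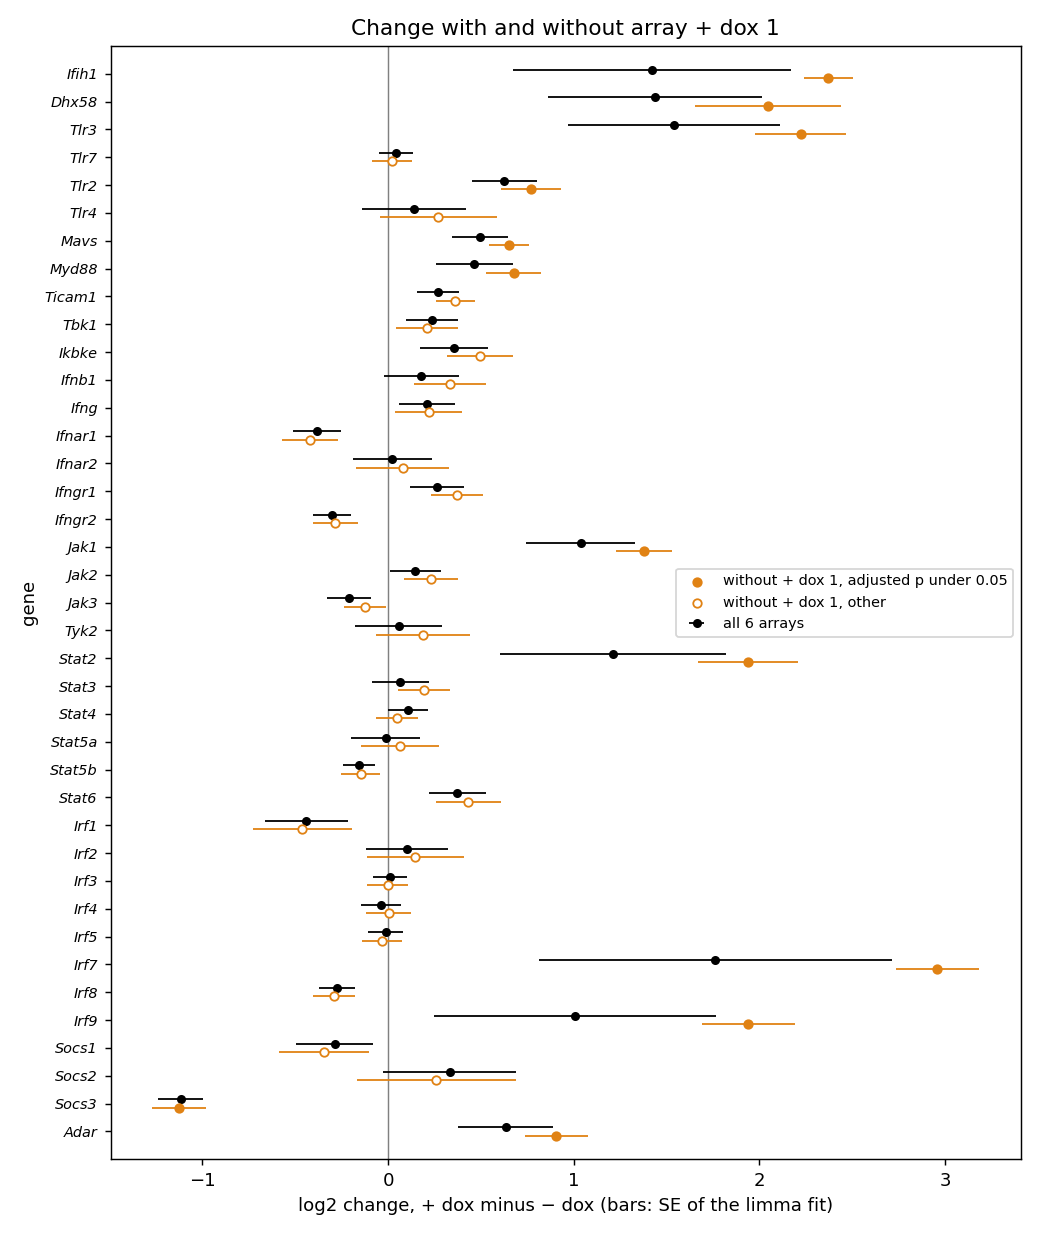
Log2 change, + dox minus − dox (horizontal axis, bars are the SE of the limma fit), of the 39 genes (vertical axis) over all 6 arrays in black and without + dox 1 in orange, filled where the adjusted p was under 0.05. Irf7 moves from 1.76 to 2.96 and its SE from 0.95 to 0.22, while Socs3 keeps −1.12 and −1.13.

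Where + dox 1 stood is described here on genes that were called higher without it, a fit in which it took no part. Those genes were picked through high + dox 2 and + dox 3 values, and the − dox arrays enter both the fit and the shares below. Over all 953 such genes + dox 1 showed a median of 57.1% of the rise seen in + dox 2 and + dox 3. It lay above all − dox arrays in 84.1% and below all of them in 47 of the 953. Over the 11 interferon sensing and signalling genes among them the median was 7.95%, from −44.3% for Irf9 to 44.2% for Tlr2, and + dox 1 lay above all − dox arrays in 3 (Tlr2, Mavs and Jak1) and below all of them in 4 (Ifih1, Stat2, Irf7 and Irf9). For Stat2 this rests on 4.29 in + dox 1 against 4.30 in − dox 2. In its other probe set + dox 1 (3.9) lay above − dox 1 (3.89). These shares are descriptions, and no test of the difference was made. An SD over 1 among + dox arrays occurred in 6 of the 39 genes and in 1.14% of all genes, and an SD over 1 among − dox arrays in 0 of the 39 and 0.748% of all genes.

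Interferon-stimulated effector genes, the antiviral genes downstream of these factors, showed the same order of arrays. Of 31 listed genes 27 were measured. Over all arrays 0 passed and 11 had an unadjusted p under 0.05 (3941 of 18193 over all genes). Without + dox 1, 5.24% of all genes rose and 3.83% fell, and of these 27 genes 19 rose and 0 fell. Their median relative to the − dox mean was −0.13 in + dox 1, 1.61 in + dox 2 and 2.45 in + dox 3, against −0.08 to 0.12 in single − dox arrays and −0.02 to 0.02 over all genes in any array. Usp18, a protease that blocks the type I receptor, had 5.60, 11.36 and 11.91 against 6.63, 5.88 and 5.38 (3.66, adjusted p = 0.253, and 5.67 without + dox 1). Ifit1, an inhibitor of viral translation, had 4.77, 10.60 and 11.15 against 7.19, 6.55 and 6.32. In both genes, which were chosen after their values were seen, + dox 2 and + dox 3 lay more than 3 units above every − dox array. The smallest p values belonged to the membrane protein gene Ifitm2 (0.51, adjusted p = 0.0784) and the oligoadenylate synthetase gene Oas1b (0.97, adjusted p = 0.148), which were higher in every + dox array.

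**Figure D4:**
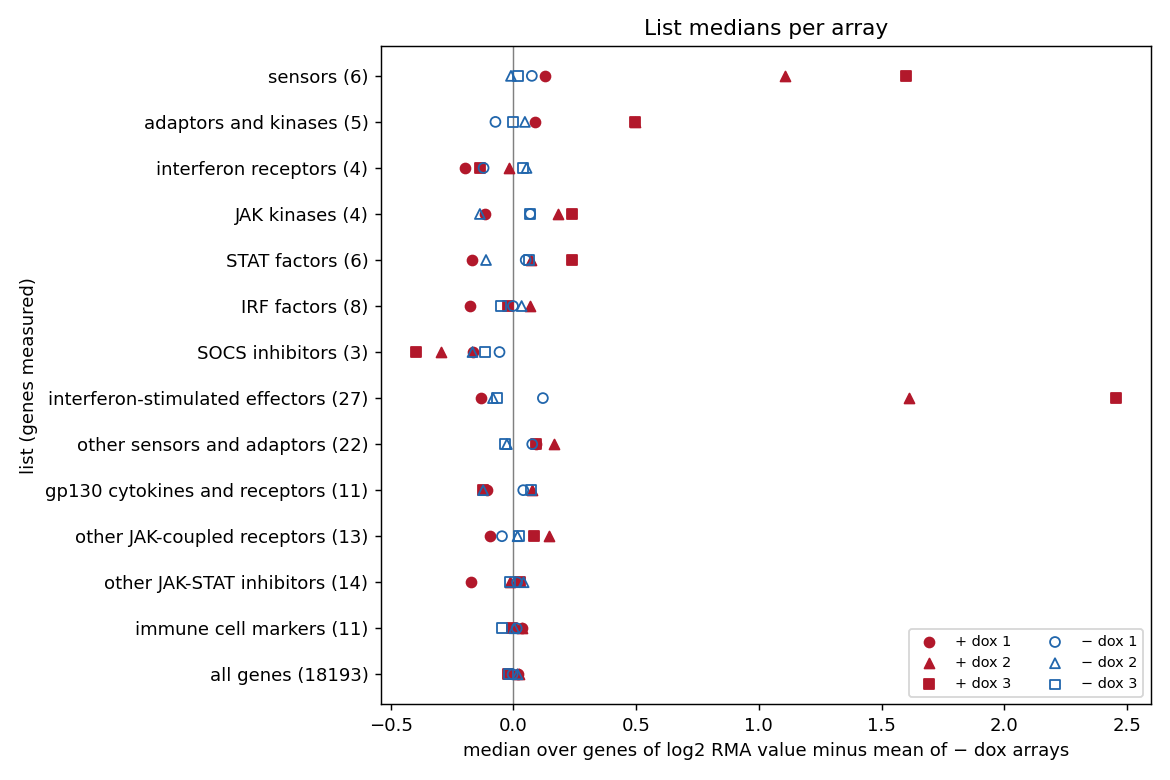
Median over the genes of a list of the log2 RMA value minus the − dox mean (horizontal axis) in each array, filled red for + dox and open blue for − dox, by list with its number of measured genes (vertical axis). Interferon-stimulated effectors lie at −0.13, 1.61 and 2.45 in + dox 1, 2 and 3 and sensors at 0.13, 1.11 and 1.60, whereas immune cell markers and all genes stay within 0.05 of 0.

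Other sensors and adaptors (22 measured of 26 listed) gave 0 calls over all arrays, with 6 at an unadjusted p under 0.05 (3941 of 18193 over all genes). Without + dox 1 there were 3 rises (Zbp1, Nod1 and Tank), where 5.24% of all genes rose. Zbp1, a sensor of left-handed nucleic acid, had 5.53, 8.03 and 8.53 against 5.39, 5.50 and 5.33, a change of 1.96 (adjusted p = 0.184), and was also chosen after its values were seen. The smallest p values were those of Azi2, an adaptor of the kinase Tbk1 (−0.41, adjusted p = 0.0649), and Aim2, a sensor of cytosolic DNA (0.42, adjusted p = 0.0990). Markers of immune cells, in which many of these genes are expressed, did not move together: 0 of 11 measured were called, 1 had an unadjusted p under 0.05, and their mean level ranged from 4.83 to 5.07 in + dox and from 4.69 to 4.92 in − dox arrays, and their part in the results was not tested. The leukocyte marker Ptprc lay between 2.78 and 3.08, less than the lower quartile of probe sets on each array, while Itgam, a myeloid integrin gene, had 3.51, 3.95 and 5.84 against 3.20, 3.26 and 3.33. Cd68, another of these markers, had 6.40, 7.06 and 7.12 against 7.14, 4.91 and 4.82. Cd74, the marker with an unadjusted p under 0.05, was lower in every + dox array (−0.50, adjusted p = 0.106).

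Beside Socs3, 4 of 14 other JAK-STAT inhibitor genes passed over all arrays, where 4.87% of all genes did. Socs6 rose by 1.5 (10.49, 11.27 and 11.08 against 9.47, 9.56 and 9.30; SE 0.21, adjusted p = 0.0171). Pias3, an inhibitor of Stat3, rose by 1.02 (adjusted p = 0.0439), and Cish, a Stat5 target that restrains cytokine receptors, by 0.59 (adjusted p = 0.0335). Socs4 fell by 0.72 (8.15, 8.16 and 8.18 against 8.79, 8.88 and 8.99; SE 0.09, adjusted p = 0.0147). These 4 genes had no overlap between groups, as did 26.9% of all genes, with + dox 1 on the side of the other + dox arrays. All 4 calls were lost without + dox 2, + dox 3, − dox 2 or − dox 3, which left 0 of 14 in each case, and likewise with the replicate number as a block and against the 1.5-fold limit. Calls over all 18193 genes also fell in these settings, from 886 to 170, 157, 121, 119, 303 and 88 in that order.

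Receptors that share these JAK kinases moved one by one, and over all arrays 4.87% of all genes were called. Of 11 measured gp130 cytokine and receptor genes Il6ra, the interleukin 6 receptor, rose by 1.21 (7.22, 7.27 and 7.46 against 5.90, 6.09 and 6.32; SE 0.14, adjusted p = 0.00985). Lifr, the receptor of LIF, had 6.11, 4.88 and 5.35 against 6.80, 6.60 and 7.20 (−1.42, SE 0.32, adjusted p = 0.0589), and passed without + dox 1 (−1.75, adjusted p = 0.0118, with 0.00397 to 0.665 over the alternatives). Il6ra missed the test without + dox 2, + dox 3 or − dox 2 and against the 1.5-fold limit, which left 0 of 11 in each case. In these settings 170, 157, 121 and 88 of all 18193 genes were called. Of 13 other JAK-coupled receptor genes the growth hormone receptor gene Ghr rose by 1.61 (9.12, 9.29 and 9.59 against 7.64, 7.75 and 7.78; SE 0.14, adjusted p = 0.00366) and passed under every alternative, and Epor, the erythropoietin receptor gene, had −0.68 (adjusted p = 0.0880).

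**Figure D5:**
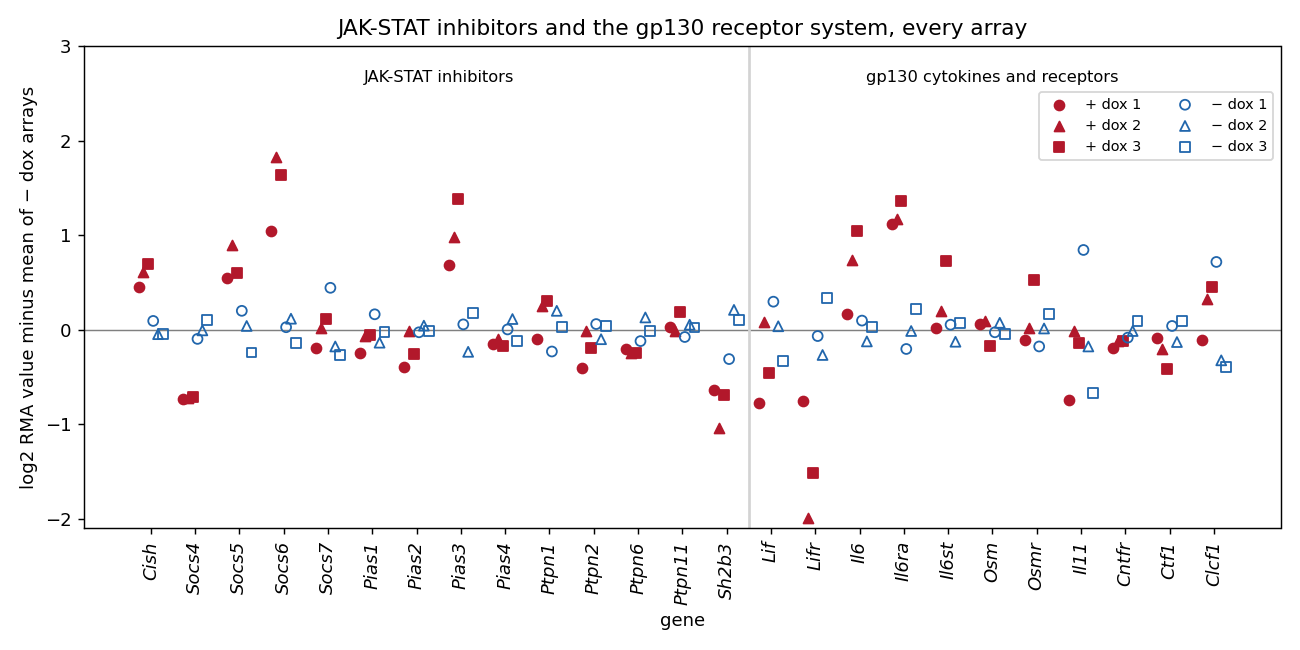
Log2 RMA value minus the mean of the − dox arrays (vertical axis) of 14 other JAK-STAT inhibitor genes and 11 gp130 cytokine and receptor genes (horizontal axis), filled red for + dox and open blue for − dox arrays. The 3 + dox arrays of Socs4 lie together about 0.7 below the − dox mean, those of Socs6 and Il6ra lie above all − dox arrays, and those of Lifr lie below all of them.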

How the data were processed

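RNA of 3 + dox and 3 − dox samples was hybridised to Affymetrix mouse genome arrays, 1 array per sample. The deposited values are log2 expression values that the authors had made by RMA normalisation, which corrects background, applies quantile normalisation and summarises probes, in the Chipster software. Deposited values carry 2 decimals. Scanner intensities were not used here. The number of arrays, not read depth, limits the precision.

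Probe sets with exactly 1 gene symbol (34945 of 45101) were kept, and each gene was read from the brightest of its probe sets by the mean of the 6 arrays. A two-sided limma fit (version 3.58.1, R 4.3.3, functions lmFit and eBayes) without covariates tested + dox against − dox, with Benjamini-Hochberg adjustment over 18193 genes and a threshold of 0.05, and the script was tested on simulated data. Intervals are 95% confidence intervals. Other settings tried were a block for the replicate number, the mean or the most variable probe set of a gene, filters on dim genes, a trended robust fit, quantile normalisation, median centring, a 1.5-fold limit, and leaving out arrays.

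Array values are given for called genes and for the 2 genes of each role with the largest change. In the other lists up to 5 called genes are named, or, if fewer than 2 were called, the 2 lowest in p. Further genes were chosen after their values were seen. The members and lists were chosen with earlier results of these data known.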

Additional observations from a re-analysis of the deposited data

How the results depend on the processing

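With 3 arrays per group, calls near the threshold turn on single arrays. Of the 39 genes 1 was called over all arrays, 0 against a 1.5-fold limit, 0 to 12 when 1 array was left out and 17 without both arrays numbered 1. Of the 87 other pathway genes 6 were called, 1 against the 1.5-fold limit, 1 to 33 when 1 array was left out and 44 without both arrays numbered 1. Of the 79 probe sets 3 were called, and 0 to 18 when 1 array was left out. Over all genes 886 were called, 88 against the 1.5-fold limit, 3658 when both arrays numbered 1 were left out, and 1650, 170 and 157 when + dox 1, + dox 2 or + dox 3 was left out. Leaving out − dox 1 gave 1140 calls, leaving out − dox 2 gave 121 and leaving out − dox 3 gave 119. The cause of these shifts was not tested.

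Deviations from the group mean correlated at −0.12, −0.22 and 0.08 between arrays with the same number. The labels do not say what that number stands for. Whether arrays with the same number share a culture or batch was not tested. With the replicate number as a block 303 genes, 2 pathway genes, 1 probe set and 1 of the 39 genes (Socs3, adjusted p = 0.0460, with 0.00388 to 0.169 over the alternatives) were called.

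Signs reversed for genes that were not called over all 6 arrays, of which Tyk2 (0.43) and Irf2 (0.41) were called higher without both arrays numbered 1. With the mean of all probe sets Tyk2 had −0.015, Stat5a 0.15, Stat5b 0.093, Irf3 −0.08 and Irf4 0.08. With the most variable probe set Stat5a had 0.31, Stat5b 0.34, Irf3 −0.03 and Irf4 0.20. With quantile normalisation Stat5a had 0.018, Irf3 −0.0014 and Irf5 0.015, and without both arrays numbered 1 Stat5a had 0.20. With 1 array left out, changes ran for Tlr4 from −0.09 to 0.36, for Ifnb1 from −0.042 to 0.33, for Ifnar2 from −0.14 to 0.26, for Tyk2 from −0.072 to 0.30, for Stat3 from −0.065 to 0.20, for Stat5a from −0.20 to 0.12, for Irf2 from −0.033 to 0.36, for Irf3 from −0.027 to 0.058, for Irf4 from −0.10 to 0.04 and for Irf5 from −0.047 to 0.038.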
